A study of Mus musculus with 23 samples.

Results

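Cardiac macrophages of control mice were compared between infarcted hearts at day 7 after coronary ligation and hearts at baseline. The comparison takes 6 of the 23 libraries of the study, chosen by genotype and time: 3 S7fl/fl libraries of day 7 and 3 S7fl/fl libraries of baseline. It covers the genes of chromosomes 1 to 19, of which 16001 of 50225 in the count table were expressed enough to be tested. S7fl/fl mice are C57BL/6 animals that carry loxP-flanked Smad7 alleles without Cre recombinase, so their Smad7 is intact. Day 7 hearts had a permanent ligation of the left anterior descending artery without reperfusion, and the labels call the baseline hearts controls, without saying whether they had a sham operation. In the other genotype of the study, MyS7KO, the same floxed allele is combined with a Cre driven by the lysozyme M promoter, which acts in myeloid cells. Its 4 libraries of day 7 and 3 of baseline served as the same contrast in other mice, and 5 S7fl/fl libraries of day 3 placed the day 7 levels in time. Cells were sorted with magnetic beads, first leaving out Ly6G+ cells (neutrophils) and then keeping CD11b+ cells, and poly(A) RNA was sequenced. The labels do not say that each library came from a separate heart, so p-values measure the spread between these libraries. The protocol speaks of 8 libraries where 23 are listed, and it does not say which were prepared together, so any preparation round that followed time cannot be told apart from it.

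The uninjured heart holds resident macrophages, many of embryonic origin, which are marked by genes such as Timd4, Lyve1 and Folr2. After an infarct, monocytes enter the dead muscle, become macrophages and outnumber the resident cells. They clear dead cells, digest and replace matrix, and release growth factors and cytokines while the scar forms.

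Libraries held 18018488 to 19549307 counts at day 7 and 16512056 to 21011705 at baseline. Levels are CPM, the counts scaled to a common library size by TMM, given as mean ± SD over 3 libraries a group. Log2 changes are day 7 minus baseline. The value after ± is a standard error worked back from the edgeR F statistic, as the absolute log2 change over the square root of F. A principal component analysis of all 23 libraries used the 1000 autosomal genes that varied most among them. Its first component held 74.1% of the variance of these genes. On it, S7fl/fl day 7 replicate 2 lay at 4.79 and replicates 3 and 4 at 30.8 and 31.4, against -73.5 to -68.9 at baseline. All 3 day 7 libraries carried reads of Y-linked genes, whereas baseline replicates 1 and 2 carried Xist and only replicate 3 carried Y-linked reads. Mitochondrial transcripts took 1.22 to 1.66% of counts at day 7 and 2.61 to 4.01% at baseline. All 10 macrophage markers checked, such as Adgre1, Csf1r and Cd68, were read in each of the 6 libraries. Of these, 8 were called higher at day 7 and Csf1r and Aif1 were not called, with a summed level of 17556 to 19369 CPM at day 7 and 10178 to 11298 CPM at baseline.

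The change between the time points reached about every second expressed gene. Of 16001 autosomal genes, 4000 (25.0%) were higher and 4048 (25.3%) were lower at day 7 at an edgeR adjusted p under 0.05, together 50.3%. The counts were 2956 higher and 2989 lower when baseline was represented by its 1 library with Y-linked reads. The larger changes were mostly losses: 399 called genes were higher by more than 2 on the log2 scale and 1442 were lower by more than 2, and beyond 3 there were 137 higher and 563 lower. The median over all genes was -0.01. The 3 day 7 and 3 baseline values did not overlap for 57.3% of genes, 28.2% with day 7 higher and 29.1% with day 7 lower. Against S7fl/fl day 3, 1853 genes (11.6%) were higher at day 7 and 1625 (10.2%) lower, together 3478 (21.7%), and 2130 without S7fl/fl day 7 replicate 2.

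**Figure D1:**
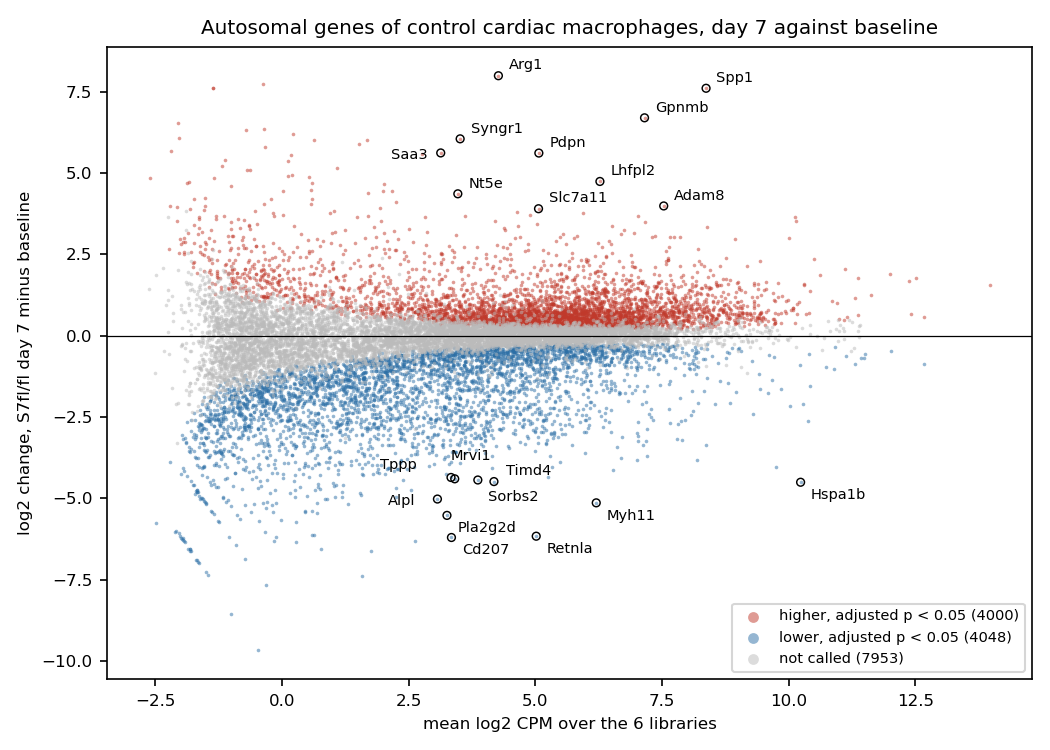
Log2 change of each tested autosomal gene between S7fl/fl day 7 and S7fl/fl baseline (vertical axis) against its mean log2 CPM over the 6 libraries (horizontal axis). Red points are the 4000 genes called higher, blue points the 4048 called lower, grey points were not called, and circles mark the 10 most raised and 10 most lowered called genes with a mean log2 CPM of at least 3, groups apart and no predicted name, from Arg1 at 7.99 to Cd207 at -6.20.

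Arg1, arginase 1, which breaks down arginine and marks alternatively activated macrophages, had the largest rise among well expressed genes. It read 339.9, 358 and 212 CPM in day 7 replicates 2, 3 and 4, and 1.24, 0.905 and 1.37 CPM in baseline replicates 1, 2 and 3. The groups were far apart, by 254-fold (log2 7.99 ± 0.80, edgeR adjusted p = 2.39e-07). The gene lies at chr10:24915221-24927484 (coordinates of the deposited table, build mm10). Spp1, at chr5:104435118-104441050, encodes osteopontin, a secreted matrix and cytokine-like protein. It read 3258, 6193 and 4831 CPM at day 7 and 22.1, 18.2 and 33.0 CPM at baseline, 195-fold higher (log2 7.60 ± 0.36, edgeR adjusted p = 6.55e-13). Groups apart were a condition of the choice of these genes. The lowest day 7 library of Spp1 stood well above every baseline library. Gpnmb, at chr6:49036546-49070929, encodes a glycoprotein of lysosomes and the cell surface. Its levels were 992, 1104 and 2463 CPM at day 7, highest in replicate 4, against 12.3, 14.1 and 17.4 CPM at baseline, 104-fold higher (log2 6.70 ± 0.37, edgeR adjusted p = 1.57e-11).

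The other 7 of the 10 most raised genes included membrane proteins, an amino acid transporter and an acute-phase protein. Syngr1, a vesicle membrane protein, averaged 90.1 ± 12.4 CPM at day 7 and 1.36 ± 0.116 CPM at baseline (66.3-fold). Pdpn, podoplanin, a ligand of the platelet receptor CLEC-2, averaged 240.2 ± 106 and 4.91 ± 0.43 CPM in the same order (48.9-fold, edgeR adjusted p = 4.5e-12). Lhfpl2, a tetraspan membrane protein, averaged 404 ± 86.1 CPM at day 7 and 15.1 ± 2.13 CPM at baseline (26.7-fold). Nt5e, the ectoenzyme CD73 that makes extracellular adenosine, averaged 52.3 ± 28 CPM at day 7 and 2.53 ± 0.776 CPM at baseline (20.5-fold), and Adam8, a membrane metalloprotease, 752 ± 224 CPM at day 7 and 47.4 ± 6.69 CPM at baseline (15.9-fold). Slc7a11, the cystine importer that feeds glutathione synthesis, read 76.8, 259.9 and 97.7 CPM at day 7 against 15.5, 6.68 and 6.67 CPM at baseline (14.9-fold, log2 3.90). Its log2 change was 3.18 without day 7 replicate 3 and 4.49 without baseline replicate 1. Saa3, a serum amyloid A made by macrophages in mice, read 107, 12.3 and 109 CPM at day 7 and 2.56, 1.30 and 0.727 CPM at baseline (log2 5.62 ± 1.39, edgeR adjusted p = 0.00288). Day 7 replicate 3 was low, and the call ended under limma-voom (adjusted p = 0.132) and with the 1 baseline library that carried Y-linked reads (edgeR adjusted p = 0.061). Its log2 change was 6.31 without baseline replicate 1 and 4.53 with the replicate number as a block.

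The largest falls included surface and secreted proteins, contractile genes and a heat shock gene. Cd207, langerin, a C-type lectin (chr6:83671215-83677857), read 0.815, 1.28 and 1.5 CPM at day 7 and 141, 73.8 and 51.1 CPM at baseline, 73.7-fold lower (log2 -6.20 ± 0.44, edgeR adjusted p = 1.61e-09). Baseline replicate 1 was the highest, and the lowest baseline library stood far above every day 7 library, groups apart being a condition of the choice. Retnla, the resistin-like protein of alternatively activated macrophages (chr16:48842551-48844461), read 7.55, 2.01 and 2.84 CPM at day 7 and 224, 411 and 263 CPM at baseline, 71.6-fold lower (log2 -6.16 ± 0.65, edgeR adjusted p = 4.62e-07). Arg1 and Retnla, commonly listed together as alternative activation genes, thus moved in opposite directions. Pla2g2d, a secreted phospholipase, averaged 1.43 ± 0.924 CPM at day 7 and 66.9 ± 13.4 CPM at baseline (46-fold lower), and Timd4, a phosphatidylserine receptor of resident macrophages, 3.97 ± 2.3 and 89.5 ± 12.6 CPM in the same order (22.4-fold lower). Alpl, tissue-nonspecific alkaline phosphatase, was 32.5-fold lower, Sorbs2, an actin adaptor of muscle, 21.6-fold, Mrvi1, a cGMP kinase substrate of smooth muscle, 21.1-fold, and Tppp, a tubulin polymerization protein, 20.5-fold.

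Hspa1b, an inducible heat shock protein (chr17:34956436-34959238), read 240.3, 261 and 258 CPM at day 7 against 5238, 5976 and 6033 CPM at baseline, 22.7-fold lower (log2 -4.50 ± 0.42, edgeR adjusted p = 5.5e-08). Hspa1a is a near-identical copy of it, so reads that fit both genes may have been left out or misassigned by the counting. Myh11, smooth muscle myosin (chr16:14194535-14291372), read 35.0, 6.10 and 4.68 CPM at day 7 against 437, 597 and 586 CPM at baseline (log2 -5.14 ± 0.89, edgeR adjusted p = 0.000123). Day 7 replicate 2 was the highest of its group for 8 of these 10 most lowered genes, all but Cd207 and Hspa1b. Without that library the log2 change was -6.64 for Myh11, -6.93 for Retnla, -6.20 for Pla2g2d, -5.99 for Alpl, -5.24 for Tppp, -5.15 for Sorbs2, -5.07 for Timd4 and -4.93 for Mrvi1.

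**Figure D2:**
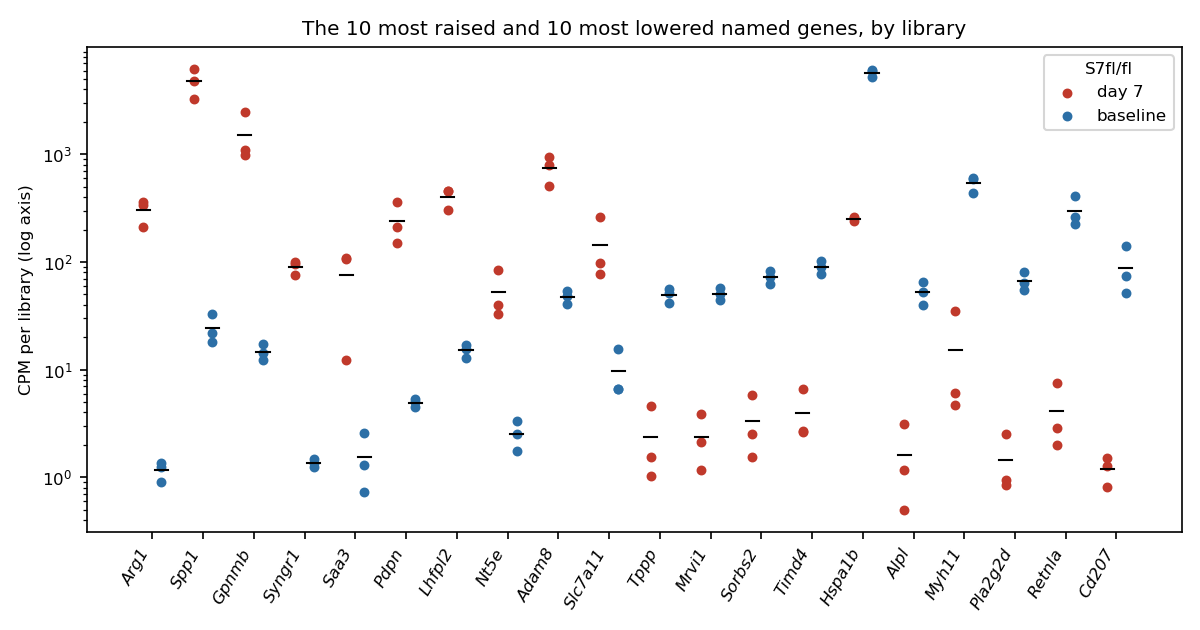
CPM in each S7fl/fl library (points, log axis) of the 10 most raised and 10 most lowered genes, chosen as for the scatter plot of all genes, day 7 left of baseline for each gene, with the mean as a line. Groups that do not overlap were a condition of the choice; the day 7 library of Saa3 at 12.3 CPM and that of Myh11 at 35.0 CPM stand apart from the other pair of their group.

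Genes of other cell types changed with time in the sorted cells. Over all autosomal genes, 25.0% were higher and 25.3% lower. All 9 tested endothelial markers were lower at day 7, with summed levels of 429, 253 and 211 CPM in day 7 replicates 2, 3 and 4 and 1597, 2035 and 2118 CPM in baseline replicates 1, 2 and 3. All 8 mural cell markers, Myh11 among them, were lower (259, 88.8 and 86.3 CPM against 1268, 1834 and 1777 CPM), and so were 7 of 8 NK cell markers (13.2 to 31.5 CPM at day 7, 53.5 to 129 CPM at baseline). Cardiomyocyte markers summed to 18.3 to 62.0 CPM at day 7 and 101 to 131 CPM at baseline. Of these 11, 9 were lower, but 4 without day 7 replicate 3 or 4, 5 without baseline replicate 2 or with no low-count filter, and 3 with the 1 baseline library that carried Y-linked reads. Fibroblast markers split: 5 of 12 were higher and 6 lower, with a sum of 3479, 1312 and 1882 CPM at day 7 against 1180, 805 and 965 CPM at baseline. The higher ones were the fibrillar collagens Col1a1, Col1a2 and Col3a1 with Postn and Cthrc1, and the lower ones included Dcn and Pdgfra. In bulk RNA, fewer cells of a type and less RNA per cell cannot be told apart.

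Of 11 tested neutrophil markers 3 (27.3%) were higher and 4 (36.4%) lower, beside 25.0% and 25.3% of all autosomal genes. They summed to 144 to 201 CPM at day 7 and 121 to 133 CPM at baseline. The higher ones were Csf3r (127 to 157 CPM at day 7, 69.9 to 86.3 CPM at baseline), which makes up most of the sum, Mmp8 (4.94 to 12.8 CPM at day 7, 1.02 to 3.21 CPM at baseline) and Retnlg, which read 30.0 CPM in day 7 replicate 2 and overlapped otherwise. The lower ones were S100a9 (0.334 to 4.4 CPM at day 7, 13.8 to 21.2 CPM at baseline), Ltf, Camp and Ngp, and Ly6g was below the low-count filter. The 4 lower markers were 1 without day 7 replicate 3 or 4, and 2 without baseline replicate 2 or 3 or with no low-count filter. Dendritic cell markers, 3 of 7 higher and 2 lower, summed to 139 to 172 CPM at day 7 and 140 to 152 CPM at baseline. Of 7 B cell markers 2 (28.6%) were lower, near the share of all genes, and 4 without day 7 replicate 4. Their sums were 70.3 to 128 CPM at day 7 and 172 to 206 CPM at baseline. The median over the 7 turned positive without baseline replicate 1 (0.24) and with the 1 baseline library that carried Y-linked reads (0.11). Cd3d, Cd3e and Cd3g of T cells were below the low-count filter. Erythroid genes read 193 CPM in day 7 replicate 2, 4.52 and 2.78 CPM in the others and 20.5 to 53.2 CPM at baseline; none of 4 was called, while all 4 were lower without that replicate. Of 3 platelet markers 1 was higher (0 without day 7 replicate 3), the sum being 63.1 CPM in day 7 replicate 3, 13.7 and 16.2 CPM in the others and 9.38 to 11.8 CPM at baseline. Of the 2 mast cell and the 2 T cell markers tested, 1 of each was higher and 1 lower (for T cells, 0 lower without baseline replicate 1), and of 4 mesothelial markers 2 were lower (1 without any 1 day 7 library or baseline replicate 1).

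**Figure D3:**
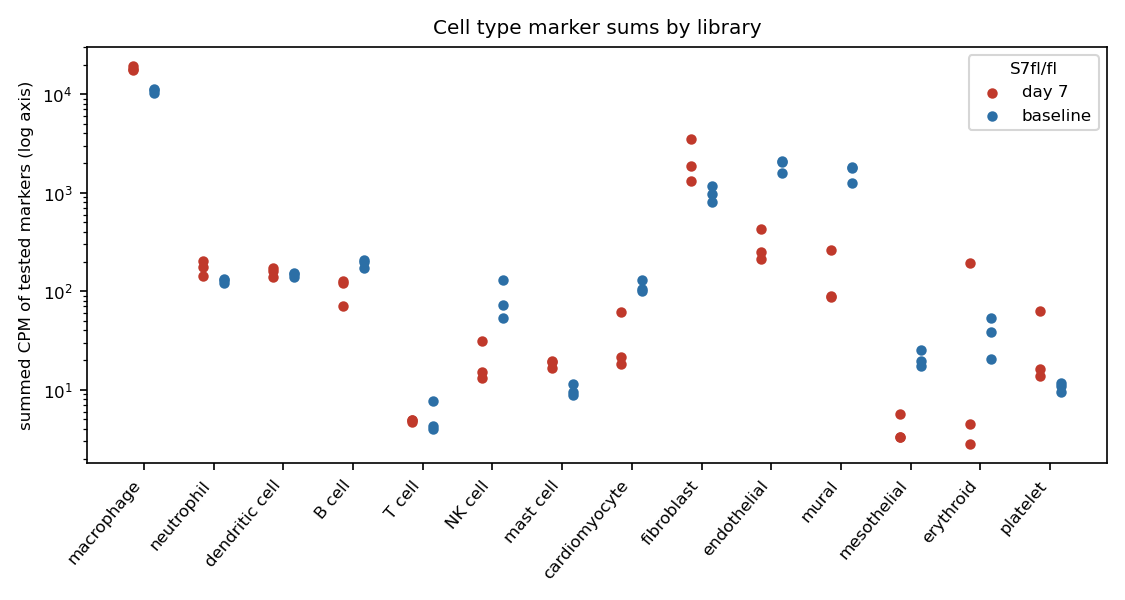
Summed CPM of the tested markers of each cell type (log axis) in the 3 S7fl/fl day 7 libraries (red, left) and the 3 baseline libraries (blue, right). Macrophage markers sum to 17556 to 19369 CPM at day 7 and 10178 to 11298 CPM at baseline; endothelial and mural sums are lower in all day 7 libraries, and day 7 replicate 2 gives the highest erythroid point (193 CPM).

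Genes of resident cardiac macrophages fell as a group. Of 17 tested, 13 (76.5%) were lower and 0 higher, with a median log2 change of -1.64; the lower members ranged from -6.62 to -0.74. Cd209f, a C-type lectin of the SIGN-R family, read 0.543, 0 and 0.446 CPM at day 7 and 40.1, 30.8 and 31.1 CPM at baseline (edgeR adjusted p = 1.44e-07). Folr2, folate receptor beta, averaged 23.3 ± 1.91 CPM at day 7 and 109 ± 10.4 CPM at baseline (4.68-fold lower, edgeR adjusted p = 2.4e-11), and Cbr2, a carbonyl reductase, 119 ± 44.8 and 640.5 ± 84.6 CPM in the same order (5.39-fold lower). The haemoglobin-haptoglobin receptor Cd163, tested among haem and iron genes, averaged 108 ± 46.1 CPM at day 7 and 1097 ± 211 CPM at baseline (10.2-fold lower). Selenop, a selenium transport protein, averaged 2229 ± 585 CPM at day 7 and 2916 ± 424 CPM at baseline and was not called (edgeR adjusted p = 0.157), but was called lower without day 7 replicate 4 (log2 -0.61, edgeR adjusted p = 0.0473). Of these 17 genes, 3 were lower and 1 higher at day 7 than at day 3 (10.2% and 11.6% of all genes).

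Classical monocyte genes rose in part, 5 of 12 higher and 1 lower (0 lower without day 7 replicate 3), median 0.59. Ccr2, the receptor that brings monocytes into tissue, averaged 303 ± 21.1 CPM at day 7 and 99.5 ± 17.1 CPM at baseline (3.04-fold, edgeR adjusted p = 2.24e-07). Ms4a4c, a membrane protein of inflammatory monocytes, was 4.19-fold higher and F10, coagulation factor X, 3.33-fold. Chil3, the chitinase-like protein Ym1, read 85.0, 337 and 67.1 CPM at day 7 and 15.2, 12.5 and 28.3 CPM at baseline (log2 3.12, edgeR adjusted p = 0.008). Its call ended without day 7 replicate 3 (log2 2.03, edgeR adjusted p = 0.071) and with the 1 baseline library that carried Y-linked reads (0.191). Plac8, the most abundant uncalled member, averaged 36.8 ± 9.82 CPM at day 7 and 41.2 ± 5.59 CPM at baseline, with overlap (edgeR adjusted p = 0.775). At day 7, 8 of the 12 were lower than at day 3 and 0 were higher (10.2% and 11.6% of all genes). Of 9 chemokine receptors tested, 8 were higher than at baseline (0.82 to 2.42) and 0 lower, among them Ccrl2, an atypical receptor for chemerin (1061, 894 and 1074 CPM at day 7, 192 ± 37.4 CPM at baseline), and Ccr7, a homing receptor of dendritic cells and a marker of that list too (44.1 ± 4.16 CPM at day 7, 8.93 ± 2.45 CPM at baseline). Cxcr2, a receptor known from neutrophils, read 0.435, 0.061 and 0.111 CPM at day 7 and 0.537, 0.226 and 1.2 CPM at baseline and was not called (edgeR adjusted p = 0.129).

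Lipid-associated macrophage genes were called higher in 14 of 16 cases (87.5%) and lower in 1, with a median of 1.65. Beside Spp1, Gpnmb and Syngr1, Trem2, a lipid-sensing receptor that gives such cells their name in other tissues, averaged 666 ± 61.2 CPM at day 7 and 80.7 ± 13.5 CPM at baseline (8.26-fold, log2 3.05 ± 0.19, edgeR adjusted p = 2.4e-11). Lpl, lipoprotein lipase, averaged 377 ± 86.9 CPM at day 7 and 341 ± 27.2 CPM at baseline (edgeR adjusted p = 0.571). Cholesterol and LXR genes were higher in 12 of 17 cases and lower in 2 (1 without baseline replicate 1 or day 7 replicate 3). Apoe, a carrier of cholesterol in lipoproteins, read 27207, 24291 and 31621 CPM at day 7 against 8337, 11058 and 8892 CPM at baseline (2.94-fold). Soat1, which esterifies cholesterol for storage, Lipa, the lysosomal lipase that frees it, and Lpcat3, which remodels phospholipids, were 2.84-fold, 2.82-fold and 1.74-fold higher. Insig1, which holds back sterol synthesis, read 123, 98.3 and 121 CPM at day 7 and 110.0, 106 and 89.3 CPM at baseline (edgeR adjusted p = 0.367).

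Lysosome genes rose almost without exception: 27 of 30 (90.0%) were higher and 0 lower, with a median of 1.12 and a range of 0.57 to 3.64 among those called. Ctsd, the aspartic protease cathepsin D, read 3618, 3606 and 4760 CPM at day 7 and 273, 389 and 303 CPM at baseline (12.4-fold, log2 3.64 ± 0.19, edgeR adjusted p = 2.68e-12). No day 7 library came near the baseline range. Acp5, an acid phosphatase, was 4.42-fold higher, and Gusb, beta-glucuronidase, 2.69-fold (565 ± 19.2 CPM at day 7, 210.4 ± 8.42 CPM at baseline). Atp6v0a1, a subunit of the proton pump, averaged 178 ± 18.5 CPM at day 7 and 144 ± 34.6 CPM at baseline and was not called (edgeR adjusted p = 0.0968). It was called higher without baseline replicate 2 (edgeR adjusted p = 0.0102), with sex as a covariate (edgeR adjusted p = 0.00983) and with limma-voom (adjusted p = 0.017). The promoter letters of Ctsd and Gusb are shown because the group moved together and the pair differs in a motif known for lysosome genes. The motif TCACGTG (both strands searched) is the core of the element that TFEB binds, as described in human cells. The windows run from 250 bases before to 50 bases after each RefSeq transcript start on GRCm38.p6, 5′ to 3′ on the gene's strand, with matches in capitals.
Ctsd, chr7:142387778-142388077, minus strand: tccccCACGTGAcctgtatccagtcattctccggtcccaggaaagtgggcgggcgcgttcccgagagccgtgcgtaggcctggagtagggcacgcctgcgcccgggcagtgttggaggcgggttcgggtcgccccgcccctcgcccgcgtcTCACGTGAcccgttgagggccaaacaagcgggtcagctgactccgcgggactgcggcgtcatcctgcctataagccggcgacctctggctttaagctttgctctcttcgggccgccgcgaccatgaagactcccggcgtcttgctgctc
Gusb, chr5:130003000-130003299, minus strand: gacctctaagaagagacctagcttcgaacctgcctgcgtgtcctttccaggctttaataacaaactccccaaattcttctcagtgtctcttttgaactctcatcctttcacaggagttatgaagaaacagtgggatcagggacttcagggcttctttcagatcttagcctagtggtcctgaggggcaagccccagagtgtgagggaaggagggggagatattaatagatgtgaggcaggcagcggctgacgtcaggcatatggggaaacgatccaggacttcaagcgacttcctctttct
The Ctsd window held 3 matches, of which a pair overlap on opposite strands, and the Gusb window held 0. Of the 30 lysosome genes, 22 were in the promoter table. Of these, 6 (27.3%) held TCACGTG in at least 1 window (Ctsa, Ctsd, Lamp1, Glb1, Atp6v1a and Mcoln1). The share was 4.29% of 27025 genes, which include genes not tested here. It was held by 2 of 18 immediate early genes (11.1%), 2 of 20 glycolysis genes and 2 of 21 respiratory chain genes (9.52%). Of 26 cell cycle genes, 1 held it (3.85%). These counts are small, and the difference between lists was not tested. In the window nearest its gene start Ctsa held 0 matches, so it counts among the 6 through another window. A match is a description of the letters, not of binding.

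Genes of glycolysis and the hypoxia response were higher in 18 of 20 cases (90.0%) and lower in 1 (0 without baseline replicate 1), with a median of 1.17. Pgam1, phosphoglycerate mutase, averaged 143 ± 21.3 CPM at day 7 and 31.6 ± 4.76 CPM at baseline (4.52-fold, edgeR adjusted p = 2.54e-10). Pkm, pyruvate kinase, averaged 1348 ± 242 and 429 ± 47.1 CPM in the same order (3.14-fold), and Aldoa, aldolase A, 881 ± 27.9 and 309 ± 53.0 CPM (2.85-fold). Vegfa, the angiogenic growth factor and a hypoxia target, read 448, 513 and 403 CPM at day 7 against 64.2, 63.5 and 40.3 CPM at baseline (8.12-fold, log2 3.02 ± 0.25, edgeR adjusted p = 4.9e-09). Hk1, the widely expressed hexokinase, averaged 81.8 ± 12.4 CPM at day 7 and 75.8 ± 10.4 CPM at baseline (edgeR adjusted p = 0.565). At day 7, 14 of the 20 were lower than at day 3 and 1 was higher (10.2% and 11.6% of all genes). The promoter of Pgam1, the member with the lowest p, is shown with ACGTG, the core of the element bound by hypoxia-inducible factors, in capitals.
Pgam1, chr19:41911621-41911920, plus strand: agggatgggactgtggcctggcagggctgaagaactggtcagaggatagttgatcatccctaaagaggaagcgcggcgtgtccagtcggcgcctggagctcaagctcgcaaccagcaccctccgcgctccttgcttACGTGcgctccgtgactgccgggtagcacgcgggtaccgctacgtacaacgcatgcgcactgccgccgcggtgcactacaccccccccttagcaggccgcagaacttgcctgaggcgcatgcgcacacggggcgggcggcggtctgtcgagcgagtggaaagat
Its window held 1 match, both strands searched. Of the 20 genes, 14 (70.0%) held ACGTG in at least 1 window, against 21.8% of all genes in the table. Immediate early genes held it in 33.3% of cases, cell cycle genes in 30.8% and respiratory chain genes in 28.6%. In the window nearest the gene start, Pkm, Vegfa and Aldoa held 0 matches, Hk2 2 and Ldha 5. Pkm, Vegfa and Aldoa thus count among the 14 through another window. ACGTG is part of TCACGTG, so the motifs overlap, and 36.4% of the lysosome genes held it too.

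Respiratory chain and citrate cycle genes rose by smaller amounts: 17 of 28 (60.7%) were higher and 0 lower, with a median of 0.43 and no called change above 1.10. Cox5a, a subunit of cytochrome oxidase, averaged 51.5 ± 4.09 CPM at day 7 and 24.1 ± 5.95 CPM at baseline (2.14-fold). Sdhb, the iron-sulfur subunit of succinate dehydrogenase, was 1.65-fold higher, Uqcrfs1, the Rieske protein of complex III, 1.61-fold, and Cs, citrate synthase, 1.38-fold (edgeR adjusted p = 7.48e-05). Sdha, the flavoprotein subunit of succinate dehydrogenase, averaged 176 ± 9.62 CPM at day 7 and 155 ± 14.4 CPM at baseline (edgeR adjusted p = 0.108; 0.0491 without baseline replicate 3). All are nuclear genes, whereas the share of mitochondrial transcripts was lower at day 7 (1.22 to 1.66% against 2.61 to 4.01% at baseline).

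Cell cycle genes were higher in 23 of 33 cases (69.7%) and lower in 0, median 0.68, the largest being 1.65. Ccne1, cyclin E1, averaged 5.33 ± 0.426 CPM at day 7 and 1.69 ± 0.0927 CPM at baseline (3.14-fold, edgeR adjusted p = 9.07e-05). Ccnb1, cyclin B1, was 2.61-fold higher, Rrm2, a subunit of ribonucleotide reductase, 2.22-fold, and Tk1, thymidine kinase, 1.91-fold. Ccnb1, Rrm2 and Tk1 were highest in day 7 replicate 3, and 13 members were called without it. With the 1 baseline library that carried Y-linked reads, 7 were called. Pcna, the sliding clamp of DNA synthesis, averaged 220.4 ± 21.2 CPM at day 7 and 219.7 ± 13.6 CPM at baseline (edgeR adjusted p = 0.975). Day 7 levels were lower than those of day 3 for 11 members and higher for 0 (10.2% and 11.6% of all genes).

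Among pro-inflammatory mediators 12 of 21 were higher and 1 lower (0 lower without any 1 of the 6 libraries), median 0.59 (1.25 with the 1 baseline library that carried Y-linked reads). Ptgs2, the inducible cyclooxygenase, read 1014, 1419 and 849 CPM at day 7 and 145, 92.5 and 88.6 CPM at baseline (10.1-fold, log2 3.33 ± 0.27, edgeR adjusted p = 2.49e-09). Osm, oncostatin M, averaged 418 ± 83.8 CPM at day 7 and 90.5 ± 13.9 CPM at baseline (4.62-fold), Cxcl1, a neutrophil chemoattractant, 702 ± 229 and 241 ± 72.6 CPM in the same order (2.92-fold), and Nlrp3, the inflammasome sensor, 1024 ± 188 and 451 ± 155 CPM (2.27-fold). Baseline replicate 3, the library with Y-linked reads, was the lowest for Cxcl1 (157 CPM) and Nlrp3 (279 CPM); against it alone the log2 changes were 2.19 for Cxcl1 and 1.90 for Nlrp3, in place of 1.54 and 1.18. Ccl4, an inflammatory chemokine, averaged 455 ± 95.3 CPM at day 7 and 449 ± 156 CPM at baseline (edgeR adjusted p = 0.946). Alternative activation genes were split, 6 of 14 higher and 6 lower. Il1rn, the antagonist of the interleukin 1 receptor, averaged 628 ± 215 CPM at day 7 and 77.1 ± 20.9 CPM at baseline (8.14-fold), while Mgl2, a galactose lectin, averaged 41.3 ± 12.3 and 539 ± 24.3 CPM in the same order (13-fold lower). Stab1, a scavenger receptor, averaged 1906 ± 223 CPM at day 7 and 1710 ± 197 CPM at baseline (edgeR adjusted p = 0.407).

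The interferon response list stood below the background in S7fl/fl: 1 of 22 was higher and 1 lower (4.55% each). Stat2, a signal transducer of the type I receptor, averaged 64.5 ± 5.95 CPM at day 7 and 119 ± 20.4 CPM at baseline (1.85-fold lower, edgeR adjusted p = 0.000137). Irf7, an interferon regulatory factor, read 122, 146 and 152 CPM at day 7 and 55.4, 111 and 47.8 CPM at baseline (edgeR adjusted p = 0.0358). That call ended without baseline replicate 1 (0.106) or 3 (0.145), without day 7 replicate 3 (0.0792) or 4 (0.0873), and with no low-count filter (0.0778), all from edgeR. The number of higher members was 5 without baseline replicate 2 or with limma-voom, 4 with sex as a covariate, 3 with DESeq2 or with the 1 baseline library that carried Y-linked reads, and 2 without day 7 replicate 2, with a fit of only the groups compared (2 lower as well) or with limma on low-filtered FPKM, and 1 with limma on unfiltered FPKM. Ifi204, an interferon-inducible DNA-binding protein, averaged 195 ± 16.4 CPM at day 7 and 189 ± 35.6 CPM at baseline (edgeR adjusted p = 0.832). The median was 0.09, and between -0.0036 with the replicate number as a block and 0.37 with the 1 baseline library that carried Y-linked reads. It was 0.31 without baseline replicate 2, 0.18 without baseline replicate 1, 0.15 without day 7 replicate 2 and 0.28 with sex as a covariate. In the same contrast in MyS7KO, 5 of the 22 were higher and 1 lower, with a median of 0.51. Over all genes, 22.4% were higher and 21.7% lower in MyS7KO.

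MHC class II and co-stimulation genes were lower in 6 of 11 cases and higher in 3, median -0.58 (-0.32 without baseline replicate 2). Ciita, the master regulator of class II genes, averaged 26.9 ± 9.98 CPM at day 7 and 58.0 ± 5.74 CPM at baseline (2.16-fold lower, edgeR adjusted p = 0.000185). H2-DMa, which loads peptides, was 1.65-fold lower. Cd74, the invariant chain, read 4946, 4397 and 5302 CPM at day 7 and 7249, 12226 and 7365 CPM at baseline (edgeR adjusted p = 0.000887), with baseline replicate 2 the highest. With the 1 baseline library that carried Y-linked reads, 3 members were lower and Cd74 was not called (edgeR adjusted p = 0.0729). H2-Oa, a subunit of the inhibitor of peptide loading, was 3.82-fold higher. Cd86, a co-stimulatory ligand, averaged 279.5 ± 61.8 CPM at day 7 and 241 ± 45.5 CPM at baseline (edgeR adjusted p = 0.241). It was called higher without baseline replicate 1 (edgeR adjusted p = 0.0455). Its log2 change was 0.21, and 0.55 with the 1 baseline library that carried Y-linked reads. Levels were higher at day 7 than at day 3 for 10 of the 11 genes and lower for 0 (11.6% and 10.2% of all genes). Cd74 averaged 8947 CPM at baseline, 2712 CPM at day 3 and 4882 CPM at day 7.

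Growth factors of repair were higher in 8 of 15 cases and lower in 3. Beside Vegfa, Hgf, hepatocyte growth factor, averaged 41.8 ± 11.2 CPM at day 7 and 9.76 ± 4.16 CPM at baseline (4.25-fold), and Grn, progranulin, 2231 ± 216 and 865 ± 284 CPM in the same order (2.58-fold). Bmp2, a bone morphogenetic protein, averaged 21.1 ± 10.1 CPM at day 7 and 69.3 ± 10 CPM at baseline (3.28-fold lower). Igf1, insulin-like growth factor 1, read 233, 176 and 232 CPM at day 7 and 149, 158 and 166 CPM at baseline. The groups did not overlap, yet Igf1 was not called (edgeR adjusted p = 0.0766), and it was called without day 7 replicate 3 (0.0453) or with only the groups compared in the edgeR fit (0.0393). It averaged 158 CPM at baseline, 90.9 CPM at day 3 and 214 CPM at day 7.

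In the TGF-beta pathway, which the study's genotype addresses, 10 of 34 genes were higher and 18 lower, median -0.39. Tgfbr1, the type I receptor, read 536, 476 and 537 CPM at day 7 and 215, 152 and 196 CPM at baseline (2.74-fold, log2 1.46 ± 0.14, edgeR adjusted p = 2.85e-08). It averaged 188 CPM at baseline, 179 CPM at day 3 and 516 CPM at day 7. The targets Tgfbi, a matrix adaptor protein, and Id2, an inhibitor of helix-loop-helix factors, were 2.13-fold and 1.97-fold higher. Acvrl1, a type I receptor for BMP9 found mainly on endothelium, averaged 68.8 ± 4.47 CPM at day 7 and 127 ± 18 CPM at baseline (1.85-fold lower). Tgfbr2, the type II receptor, averaged 289.8 ± 19.5 CPM at day 7 and 296 ± 3.81 CPM at baseline (edgeR adjusted p = 0.853). The summed endothelial markers were 211 to 429 CPM at day 7 and 1597 to 2118 CPM at baseline, and their part in the lower members was not tested.

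Extracellular matrix genes were higher in 10 of 20 cases and lower in 1, median 1.04 (0.56 without day 7 replicate 2). Thbs1, thrombospondin 1, read 3250, 4661 and 3702 CPM at day 7 and 389, 321 and 305 CPM at baseline (11.4-fold, log2 3.52 ± 0.28, edgeR adjusted p = 1.85e-09). Fn1, fibronectin, averaged 2996 ± 1001 CPM at day 7 and 374 ± 72.6 CPM at baseline (8.01-fold). Postn, periostin, a marker of activated fibroblasts, read 495, 210.2 and 253 CPM at day 7 and 38.7, 29.4 and 40.9 CPM at baseline (8.78-fold), and Tnc, tenascin C, averaged 16.4 ± 6.26 CPM at day 7 and 2.24 ± 0.426 CPM at baseline (7.37-fold). Col4a1, basement membrane collagen, read 467, 248 and 264 CPM at day 7 and 549, 606 and 675 CPM at baseline; the edgeR adjusted p was 0.105, 0.0115 with only the groups compared in the fit, and 0.0489 with limma-voom. Day 7 replicate 2 was the highest of its group for Postn, Tnc and Col4a1 and also for the summed fibroblast markers (3479 CPM, against 1312 and 1882 CPM in the others and 805 to 1180 CPM at baseline), whose part in these changes was not tested. With the 1 baseline library that carried Y-linked reads, 6 members were higher, and 3 were lower when only the groups compared were fitted (2 with limma-voom). Among matrix proteases and their inhibitors 12 of 19 were higher and 5 lower (3 with that 1 baseline library). Beside Adam8, Mmp14, a membrane collagenase, averaged 476 ± 92.2 CPM at day 7 and 37.2 ± 8.67 CPM at baseline (12.8-fold, edgeR adjusted p = 1.92e-12), Mmp19 212 ± 95.1 and 32.3 ± 1.54 CPM in the same order (6.56-fold), and Plaur, the urokinase receptor, 504 ± 92.2 and 171 ± 37.7 CPM (2.95-fold). Timp2, an inhibitor of metalloproteases, averaged 576 ± 112 CPM at day 7 and 570.2 ± 47.8 CPM at baseline (edgeR adjusted p = 0.944).

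Shares called among genes of clearance were near those of all genes (25.0% higher, 25.3% lower): of 15 efferocytosis genes, 5 were higher and 5 lower (33.3% each). The integrin subunits Itgav (273 ± 72.0 CPM at day 7, 67.6 ± 14.8 CPM at baseline, 4.03-fold) and Itgb5 (673 ± 34.6 and 215 ± 16.3 CPM in the same order, 3.13-fold), which pair to bind bridging proteins on dead cells, rose, and the receptors Timd4 and Cd36 fell (Cd36, 398 ± 53.2 CPM at day 7, 1227 ± 181 CPM at baseline, 3.08-fold lower). Of 12 complement genes 4 were higher and 4 lower (33.3% each). Cd93, a receptor once linked to C1q, and C3ar1, the C3a receptor, were 2.31-fold and 1.78-fold higher, while C4b, a form of complement component C4, was 2.64-fold lower. C1qa, a chain of C1q, read 3231, 2952 and 3027 CPM at day 7 and 1930, 3030 and 2356 CPM at baseline, with overlap (edgeR adjusted p = 0.163), and was called higher without baseline replicate 2 (0.0468). Haem and iron genes were higher in 5 of 11 cases and lower in 2: Fth1, ferritin heavy chain, was 3.74-fold higher, Slc48a1, a haem exporter of lysosomes, 2.64-fold, and Slc11a1, a phagosomal metal transporter, 2.08-fold. Hmox1, haem oxygenase 1, read 1571, 3735 and 2067 CPM at day 7 and 1584, 2134 and 1592 CPM at baseline (edgeR adjusted p = 0.164), and was called without day 7 replicate 2 (0.0388).

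Immediate early and heat shock genes fell: 14 of 22 (63.6%) were lower and 1 higher (0 without baseline replicate 3 or day 7 replicate 3), median -0.92. Jun, an AP-1 subunit, read 682, 542 and 615 CPM at day 7 and 2182, 2236 and 3441 CPM at baseline (4.27-fold lower, log2 -2.10 ± 0.17, edgeR adjusted p = 2.65e-09). Atf3, a stress-induced factor, was 2.91-fold lower, Klf4, a zinc finger factor, 2.56-fold, and Hspa1a 16.4-fold (212 ± 4.33 CPM at day 7, 3469 ± 310.3 CPM at baseline). Junb, another AP-1 subunit, averaged 2668 ± 489 CPM at day 7 and 2772 ± 451 CPM at baseline (edgeR adjusted p = 0.825). Relative to day 3, 13 were higher at day 7 and 0 lower (11.6% and 10.2% of all genes). Jun averaged 2620 CPM at baseline, 337 CPM at day 3 and 613 CPM at day 7. Of 23 macrophage transcription factors 12 were higher and 5 lower than at baseline. Runx3 averaged 191 ± 14.9 CPM at day 7 and 58.3 ± 4.08 CPM at baseline (3.28-fold), Bhlhe40, a helix-loop-helix repressor, 529 ± 19.1 and 192 ± 48.8 CPM in the same order (2.76-fold), and Spi1, the lineage factor PU.1, 469.6 ± 54.4 and 225 ± 47.3 CPM (2.09-fold). Nr4a1, an orphan nuclear receptor, averaged 1016 ± 226 CPM at day 7 and 1285 ± 169 CPM at baseline (edgeR adjusted p = 0.18).

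**Figure D4:**
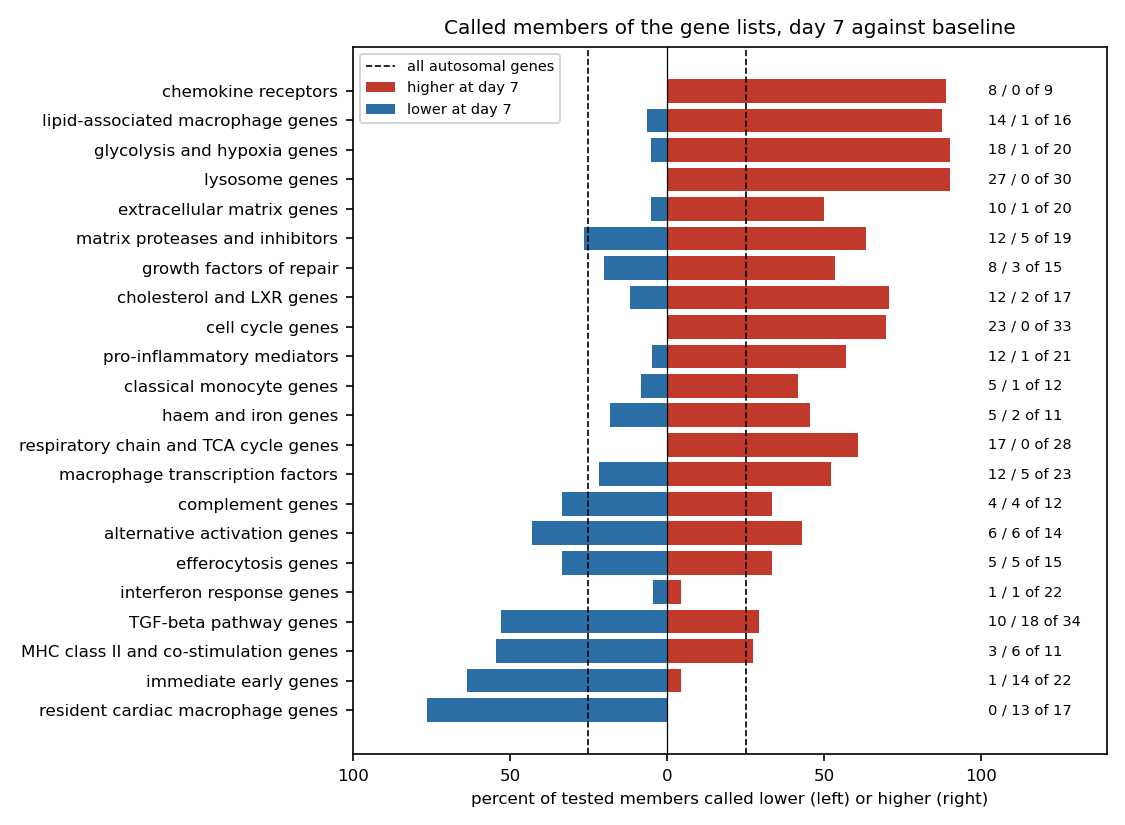
Percent of the tested members of each gene list called higher (right, red) or lower (left, blue) at day 7 against baseline in S7fl/fl libraries, ordered by median log2 change, with the counts at the right (higher / lower of tested). Dashed lines mark all autosomal genes (25.0% higher, 25.3% lower); lysosome and glycolysis genes reach 90.0% higher and resident macrophage genes 76.5% lower.

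The day 7 levels were set against day 3 to see which differences were still moving. Spp1 averaged 24.4 CPM at baseline, 10995 CPM at day 3 and 4761 CPM at day 7, and the later pair differed (log2 -1.21, edgeR adjusted p = 0.0013). Thbs1, Ptgs2 and Arg1 also stood lower at day 7 than at day 3 (log2 -1.35, -0.96 and -1.56). Apoe went the other way, with 9429 CPM at baseline, 10114 CPM at day 3 and 27706 CPM at day 7 (log2 1.45 for the later pair, edgeR adjusted p = 3.7e-07). Postn averaged 36.3, 54.8 and 319 CPM at those times, and Trem2 80.7, 434 and 666 CPM. The resident genes Timd4 and Folr2 averaged 2.67 and 22.9 CPM at day 3, within the range seen at day 7. Both comparisons use the same day 7 libraries.

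The same contrast in MyS7KO mice uses no library of the S7fl/fl contrast. Smad7, counted over its whole length, averaged 62.5 ± 6.76 CPM at day 7 and 56.4 ± 4.25 CPM at baseline in S7fl/fl, and 23.4 ± 7.66 and 38.0 ± 15.9 CPM in MyS7KO. There 3585 genes (22.4%) were higher and 3465 (21.7%) lower. Of the 4000 genes higher in S7fl/fl, 3122 (78.0%) were called higher in MyS7KO, which is 87.1% of the MyS7KO list, and of the 4048 lower genes 2902 (71.7%; 83.8% of the MyS7KO list). None was called in opposite directions, and 38 of the higher and 48 of the lower genes had the opposite sign. Across genes, which are not independent replicates, the log2 changes had a Pearson r of 0.885. Mean levels of Arg1 were 303 CPM at day 7 and 1.17 CPM at baseline in S7fl/fl, and 164 and 2.21 CPM in MyS7KO. Resident macrophage genes were lower in 13 of 17 cases in S7fl/fl and 15 in MyS7KO, lysosome genes higher in 27 of 30 in each, and cell cycle genes higher in 23 of 33 in S7fl/fl and 14 in MyS7KO. Counts of calls were unequal for other lists too, but no list was tested for a difference between genotypes. The S7fl/fl count of cell cycle genes was itself 13 without S7fl/fl day 7 replicate 3. Of 21 pro-inflammatory mediators 12 were higher in S7fl/fl and 7 in MyS7KO, and of 20 extracellular matrix genes 10 and 14. Lower in S7fl/fl and MyS7KO were 18 and 13 of 34 TGF-beta pathway genes, 8 and 5 of 8 mural markers, and 6 and 2 of 12 fibroblast markers. The 4 MyS7KO day 7 libraries all carried Xist, and 1 of the 3 at baseline did, so the makeup by sex runs the other way there.

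A test of the difference between the time effects (S7fl/fl minus MyS7KO) called 0 genes with edgeR, where 825 had an unadjusted p under 0.05, 1 with DESeq2 and 0 with limma-voom. The lowest p belonged to Cd109, a surface protein that binds TGF-beta, which averaged 13.7 ± 1.16 CPM at day 7 and 6.00 ± 1.25 CPM at baseline in S7fl/fl, and 23.7 ± 2.01 and 4.54 ± 0.591 CPM in MyS7KO (n = 4 and 3). The difference was -1.19 ± 0.23 on the log2 scale and did not pass (edgeR adjusted p = 0.435). Also among the 5 lowest were Gucy1a1, a subunit of soluble guanylate cyclase (-1.69 ± 0.43), Ighv1-18, an immunoglobulin heavy chain variable segment, and Pf4, platelet factor 4 (1.10 ± 0.29), each with an edgeR adjusted p of 0.877. Gucy1a1 averaged 5.19 CPM at day 7 and 46.5 CPM at baseline in S7fl/fl, and 13.3 and 36.9 CPM in MyS7KO. Pf4 averaged 372 ± 107 CPM at day 7 and 466 ± 43.0 CPM at baseline in S7fl/fl (edgeR adjusted p = 0.206; 0.0359 without day 7 replicate 3), and 162 ± 34.8 and 437 ± 118 CPM in MyS7KO. Ighv1-18 read 0.244 to 2.39 CPM at day 7 and 0.0428 to 1.36 CPM at baseline in S7fl/fl, and no count in the 4 MyS7KO day 7 libraries, which allows up to 0.151 to 0.192 CPM per library (3 counts, counting error only). In S7fl/fl it was not called (edgeR adjusted p = 0.257), but was called without baseline replicate 1 (0.0223).

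**Figure D5:**
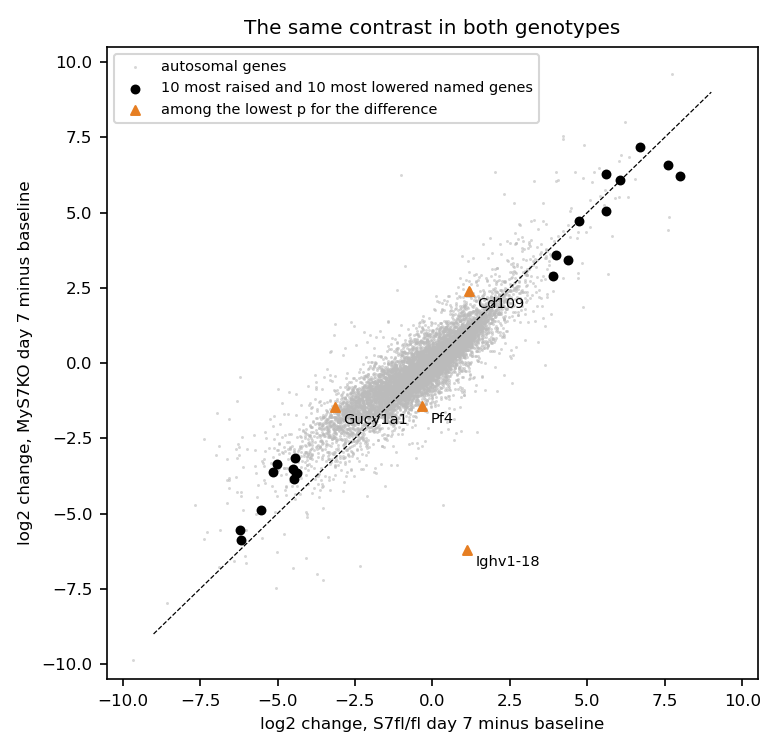
Log2 change between day 7 and baseline of each autosomal gene in S7fl/fl (horizontal axis) and in MyS7KO (vertical axis), with the line of equal change dashed. The 10 most raised and 10 most lowered genes in S7fl/fl (black, chosen as for the scatter plot of all genes) keep their direction in MyS7KO. Triangles mark 4 of the 5 genes with the lowest p for the difference, a test that no gene passed with edgeR. Ighv1-18 is far from the line at near-zero levels, where a fitted change is no bound.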

How the data were processed

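Libraries were made from poly(A) RNA of cardiac macrophages with the NEBNext Ultra kit and read as paired ends on an Illumina NovaSeq, per the labels' protocols. Read counts come from the authors' deposited gene table and were used unchanged, and a second deposited table holds the authors' FPKM values, used only in alternatives. Per the submitters' processing notes, TopHat2 2.0.9, HTSeq 0.6.1 and Cufflinks 2.1.1 were used with mm10 and GRCm38.p6; strandedness is not given in the sources used here, so overlapping genes may share reads.

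Counts of all 23 libraries in 6 groups were tested with edgeR 4.0.16 (R 4.3.3): TMM, filterByExpr, robust quasi-likelihood testing (1 coefficient for each group), two-sided p-values, Benjamini-Hochberg adjustment over 16545 genes, and calls at an adjusted p under 0.05. Genes of chromosomes 1 to 19 were counted. Alternatives used DESeq2 1.42.0, limma 3.58.1, other scalings and filters, FPKM with pseudocounts of 1 and 0.1, a replicate block, sex as a covariate, and left-out libraries. Of simulated 1.5-, 2-, 4- and 8-fold changes in this comparison (50 genes each of 16332) edgeR recovered 30, 60, 94 and 100%, with 3.4% false calls. All other genes were simulated without change, and the changed genes were drawn only from those above a minimum baseline level. In the data 50.3% of autosomal genes were called, so these rates do not describe a comparison with that many changes. Libraries of one group differed by more than read sampling gives (chi-square over its degrees of freedom 25.4 to 37.0).

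Named were the 10 most raised and 10 most lowered genes (average log2 CPM of at least 3, groups apart, no predicted genes), per list the 4 called members of lowest p and the most abundant uncalled one, and the 5 lowest p-values for the difference between genotypes. Of the genes this rule names, 4 are not reported here. Collagens, Dcn, Pdgfra, Cthrc1, the neutrophil markers and the T cell genes were named after their values were seen, as were the genes listed for a promoter motif. The gene lists, their members and the comparison were chosen with earlier results of these data known. Promoter sequences are from RefSeq on GRCm38.p6.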

Additional observations from a re-analysis of the deposited data

Results flagged for a closer look

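Pla2g2d, a secreted phospholipase, read 5.07 CPM in MyS7KO day 7 replicate 4 and 1.09 to 1.29 CPM in the other 3 libraries of that group, a gap of 0.949 of the group's range. It was the only sample far from its group among 49 sets of values looked at (25 genes in the S7fl/fl day 3 and MyS7KO day 7 groups), where chance alone gives about 1 in 20. Groups of 3 libraries, which include both S7fl/fl groups compared, were not examined in this way.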

How the results depend on the processing

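The counts of higher and lower genes kept within 1.5 times of 4000 and 4048 under all alternatives run: 2956 to 4158 higher and 2989 to 4765 lower. The lowest came from the 1 baseline library with Y-linked reads, a lone sample assumed to vary like the other groups. Leaving out 1 library gave 3435 to 3910 higher and 3356 to 3984 lower. In MyS7KO the counts were 2963 to 4047 higher and 2601 to 4160 lower. The difference between genotypes called 0 genes in every edgeR fit, 1 with DESeq2 and 13 with limma on log2(FPKM + 1) and no low-value filter. Day 7 against day 3 gave 2130 to 3204 genes when 1 library was left out, fewest without S7fl/fl day 7 replicate 2 (2130) and replicate 4 (2495).

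No pairing by replicate number was seen, since deviations from the group means correlated at 0.0198 for number 2 and -0.135 for number 3. With the replicate number as a block 3864 genes were higher and 3888 lower. Under it Nr4a1 (adjusted p = 0.0282) and Cxcr2 (0.034), a chemokine receptor at 1.2 CPM or less, became called by edgeR.

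Of 2177 values of 121 named genes under 18 alternatives, 2110 kept direction and call, 10 lost the call, 20 gained it and 37 changed sign. All sign changes fell to 8 uncalled genes near 0, none called in any alternative, and the cause was not tested. Ranges here are over the 6 fits that each leave out 1 library. Log2 changes for Pcna (0.01 as reported) were -0.0109 with RLE size factors, -0.011 with DESeq2, -0.0355 with only the groups compared, -0.012 with log2(FPKM + 1), filtered or not, -0.0122 with log2(FPKM + 0.1), -0.0036 with sex as a covariate, with a range of -0.0553 to 0.109. For Timp2 (0.01) they were, in the same order, -0.0015, -0.0015, -0.0254, -0.0158, -0.016 and -0.021, with a range of -0.117 to 0.162. Plac8 (-0.16) had 0.199 with sex as a covariate, 0.0659 with the Y-linked baseline library and a range of -0.38 to 0.0095. Ccl4 (0.02) had -0.0159 with only the groups compared and a range of -0.211 to 0.293. Ifi204 (0.05) had -0.0086 with the replicate block and a range of -0.0513 to 0.265. Tgfbr2 (-0.03) had 0.0038 with no low-count filter and a range of -0.0769 to 0.0341. Junb (-0.06) had a range of -0.211 to 0.0416, and Lpl (0.14) one of -0.0367 to 0.299. Fits on log2(FPKM + 1) gave smaller changes for low genes, such as 6.43 in place of 7.99 for Arg1 and -1.67 in place of -4.44 for Sorbs2, since the pseudocount is added to both groups.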

Other observations

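Protein-coding genes were called more often (54.5% of 13372) than lincRNAs (36.6% of 451), antisense genes (28.6% of 524) or processed pseudogenes (25.6% of 476). Called lincRNAs were mostly lower at day 7 (104 lower, 61 higher), and called processed pseudogenes mostly higher (88 higher, 34 lower). Levels were not compared between these classes, and the part of level in the shares called was not tested. Reads of pseudogenes and their parent genes, and of antisense genes and the genes opposite them, were not told apart.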
